A study of Mus musculus with 4 samples.

Results

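Gingiva with ligature periodontitis was set against control gingiva of the same genotype label, Itga9-Lyz2-cHet, in mice. Each group was 1 single-cell RNA library. The PD library came from animals in which a silk thread was tied at the upper second molar and Porphyromonas gingivalis, a periodontal bacterium, was applied, and gingiva was taken after 14 days. The control library carries the treatment label Control, and whether its animals had a sham operation is not stated. Gingiva was digested with collagenase and dispase and live cells were stained before capture. Both libraries carry the same cHet allele label, which the sources do not spell out beyond the gene names Itga9 (an integrin subunit) and Lyz2 (a myeloid gene), so neither is labelled wild type. A second pair, Itga9-Lyz2-cKO PD and control, had the same treatments and is given beside it where its values bear on a gene. The number, age and sex of the animals and the hour of harvest are not given. Of 17839 deposited barcodes 13864 were kept, 5949 of 9072 from PD and 7915 of 8767 from control, out of 26495 kept of 33854 in the 4 libraries of the series. A kept barcode had at least 200 genes, at most 20% mitochondrial unique molecular identifiers (UMIs) and at least 1501 UMIs. Within the kept cells 3 gates were drawn on raw UMIs: keratinocyte (Krt5 plus Krt14 at least 5), endothelial (Pecam1 plus Cdh5 at least 2) and fibroblast (Col1a1 plus Col3a1 at least 10).

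The gingiva is a stratified epithelium on a vascular connective tissue, and it seals the tooth through the junctional epithelium. In periodontitis, bacteria at the tooth surface set off an inflammatory response in which epithelium, vessels and fibroblasts release chemokines and proteases, leukocytes enter, attachment is lost and osteoclasts resorb alveolar bone. Keratinocytes answer injury with alarm proteins, stress keratins and proteases, endothelial cells with adhesion molecules and sprouting, and fibroblasts with cytokines, collagenases and new matrix.

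UMIs were summed over the cells of a population and scaled to counts per 1000000 (CPM). Brackets after a level or a ratio hold its 95% interval, which covers counting error only. With 1 library per group there is no replicate spread, so no p-value is given and no difference between animals can be told from an effect of the ligature. A gene is called higher or lower in PD if, after 10 CPM was added to both levels, they differed 2-fold or more, 1 of the libraries held 50 of its UMIs, and 1 lay outside the interval of the ratio. A log2 fold below is PD over control with 10 CPM added, which shrinks the differences of low genes. A list member counts as measured with 20 UMIs over both libraries. A call needs 50 UMIs in 1 library, so some measured members could not be called. Shares of called genes are over genes with 50 UMIs and have another base than the list counts. The median log2 fold over all genes lay between -0.02 and -0.06 in the 4 populations.

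The libraries differed in depth and in the cells they held. The deposit held 36231795 UMIs in PD and 58702911 in control, and the kept cells 33497251 and 54699101. No control barcode lay under 1501 UMIs, while PD barcodes reached down to 500, and 33.7% of PD barcodes lay under the common floor. Median UMIs per kept cell were 4793 and 5598, and the median mitochondrial share was 5.97% in PD and 9.41% in control. Across pairs of libraries 65 to 116 barcodes were shared, 95 of them between PD and control. Doublets were not called, and 79 of 549 PD and 62 of 173 control cells of the endothelial gate also passed the keratinocyte gate. The 12 endothelial markers summed to 7777 CPM in PD and 7731 CPM in control in the endothelial gate, against 82.4 and 70.7 CPM in the keratinocyte gate. The 10 fibroblast markers summed to 89496 and 41320 CPM in the fibroblast gate, against 716 and 432 CPM in the keratinocyte gate. The 12 keratinocyte markers summed to 29272 CPM in PD and 40503 CPM in control in the keratinocyte gate, but to 67092 and 53816 CPM in cells of no gate without a Ptprc UMI, so the gate leaves out cells richer in these markers. They also summed to 8616 and 9890 CPM in the endothelial gate and 5454 and 5670 CPM in the fibroblast gate. Itga9, named by the genotype labels, gave 50.0 CPM (39.8 to 62.0) in PD and 37.0 CPM (24.4 to 53.8) in control in Ptprc cells of no gate. In cKO these cells gave 4.98 CPM in PD and 21.9 CPM in control.

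Cells of vessels and connective tissue took larger shares of the PD library. The endothelial gate held 9.23% of PD cells (8.51 to 9.99) and 2.19% of control cells (1.88 to 2.53), a ratio of 4.22 (3.57 to 4.99). The fibroblast gate held 4.76% (4.23 to 5.33) and 2.16% (1.85 to 2.51), a ratio of 2.20 (1.83 to 2.65). Cells of no gate with a UMI of Ptprc, the leukocyte phosphatase CD45, held 6.76% (6.13 to 7.42) and 1.55% (1.29 to 1.85), a ratio of 4.35 (3.56 to 5.31). The keratinocyte gate held 68.2% (67.0 to 69.4) and 73.5% (72.6 to 74.5), a ratio of 0.927 (0.907 to 0.947). The genes that draw this gate were lower in PD within it, Krt5 at 2463 against 5388 CPM and Krt14 at 4067 against 8295 CPM. The remaining cells, with no gate and no Ptprc UMI, held 12.98% and 21.79%, a ratio of 0.595 (0.551 to 0.644), and 1.511 in cKO. The keratinocyte ratio turned to 1.07 with a mitochondrial cap of 10%, and was 0.669 without the common UMI floor. In the cKO pair the ratios were 1.495 for the endothelial, 1.995 for the fibroblast and 0.773 for the keratinocyte gate. Cells lay close to the threshold: 43 PD and 24 control cells sat exactly on the endothelial threshold, and 179 and 105 lay 1 UMI under it.

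**Figure D1:**
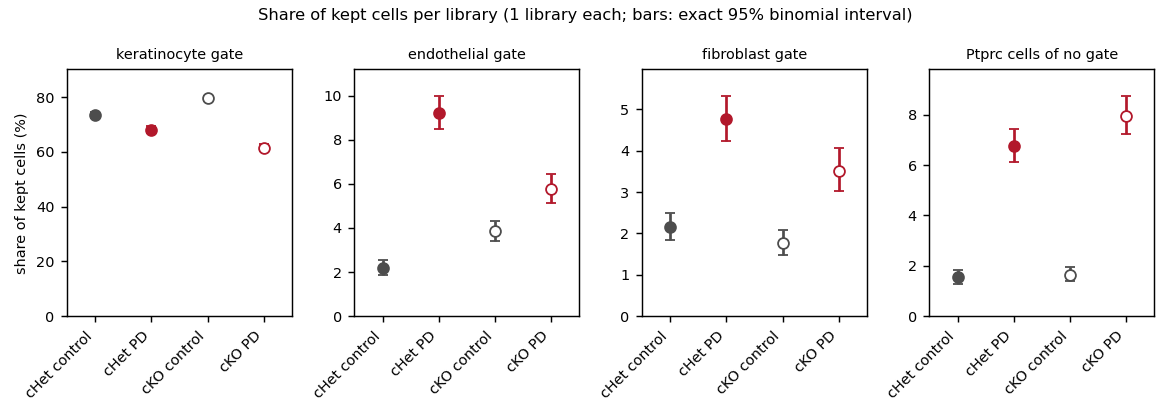
Share of kept cells (percent, vertical axes from 0) in each gate and in Ptprc cells of no gate for the 4 libraries, with exact 95% binomial intervals. In cHet the endothelial gate holds 2.19% of cells in control and 9.23% in PD, and the keratinocyte gate 73.5% and 68.2%.

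In PD keratinocytes a set of alarm, protease and wound genes was higher, and keratins of the differentiated oral surface were lower. Of 12675 genes with 50 UMIs, 529 were called higher, a background of 4.17%, and 528 lower, also 4.17%. With TMM scaling, which adds 0.18 to each log2 ratio here before 10 CPM is added, the higher share of the calls was 67.15% in place of 50.05%. Among the largest, Tmprss11g, a membrane serine protease gene, had 236 CPM (230.4 to 243) in PD and 10.3 CPM (9.30 to 11.3) in control, 23.01-fold (20.8 to 25.5) higher. Ccdc71l had 269 CPM in PD and 18.6 CPM in control (14.4-fold, 13.4 to 15.6), and Phlda1 had 512 CPM in PD and 48.7 CPM in control (10.5-fold, 10.03 to 11.04). Sprr2h, which codes for a small proline-rich envelope protein, had 138 CPM in PD and 1.40 CPM in control, but it has near-identical neighbours in its family, so its UMIs may be shared with them. With cells thinned to 1500 UMIs its log2 fold was 2.73 against 3.70.

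Interleukin-1 family genes were among the higher keratinocyte signals. Il1rn (chr2:24336853-24351494 in mm10), the secreted receptor antagonist of interleukin-1, had 477 CPM (468 to 486) in PD and 42.03 CPM (40.04 to 44.1) in control, 11.3-fold (10.8 to 11.96) higher. The alarmin Il33 had 57.3 CPM in PD and 5.41 CPM in control (10.6-fold, 9.16 to 12.3), and the agonists Il1b and Il1a had 24.4 against 2.78 CPM and 19.7 against 3.48 CPM, all called higher in PD. Over all kept cells of PD, given below, Il1b had a higher CPM than in this gate. The part of RNA from other cells in its value here was not tested. With a mitochondrial cap of 10% the log2 fold of Il1a was 0.89 against 1.14, under the 2-fold limit. Il24, an interleukin-10 family cytokine of wounded epithelium, had 70.01 CPM in PD and 0.226 CPM in control, from 1689 and 9 UMIs. Of the interleukin-1 and interleukin-36 list there were 7 higher and 0 lower of 16 measured members (median log2 fold 0.71).

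Chemokines for neutrophils and monocytes were higher in the keratinocyte gate of PD. Cxcl1 had 239 CPM (232 to 245) in PD and 84.6 CPM (81.8 to 87.5) in control, Cxcl2 had 129 CPM in PD and 19.6 CPM in control, Cxcl3 had 65.5 against 2.18 CPM and Cxcl5 had 82.1 against 5.31 CPM. Ppbp, another chemokine of the CXC class, had 173 CPM in PD and 20.4 CPM in control (8.45-fold, 7.84 to 9.12), and the monocyte attractant Ccl2 had 114 CPM in PD and 11.3 CPM in control (10.1-fold, 9.18 to 11.2). The PD library was the higher in each of these. Cxcl1, Cxcl2, Cxcl3, Cxcl5 and Ccl2 had higher CPM in the PD fibroblast gate than here, and Cxcl1, Cxcl2 and Cxcl3 also in PD Ptprc cells of no gate. In those Ptprc cells the log2 folds were 6.17 for Cxcl1, 2.54 for Cxcl2 and 5.84 for Cxcl3. In keratinocytes they were 1.39, 2.23 and 2.63. The part of RNA from other cells in the values of the keratinocyte gate was not tested. The cytokine and chemokine list had 12 higher and 0 lower of 35 measured members (median log2 fold 0.37).

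The calprotectin subunits S100a8 and S100a9, antimicrobial proteins of neutrophils and stressed epithelium, were higher in the keratinocyte gate. S100a8 had 1172 CPM (1158 to 1185) in PD and 112 CPM (109 to 116) in control, 10.4-fold (10.1 to 10.8) higher, and S100a9 had 594 CPM (584 to 604) in PD and 110.2 CPM (107 to 114) in control, 5.39-fold (5.21 to 5.58) higher. A UMI of S100a8 was seen in 43.8% of PD and 2.04% of control keratinocytes, at median depths of 5198 and 5692 UMIs. Fibroblasts, which should lack it, gave 17% and 1.17%, at 4862 and 6491 UMIs. Neutrophil markers moved in the same libraries: the neutrophil receptor gene Csf3r was 5.06 CPM in PD and 0.576 CPM in control in this gate, Retnlg 17.9 and 9.37 CPM. Without gate members that had a Ptprc UMI, the log2 fold was 4.84 for S100a8 and 4.39 for S100a9, against 3.27 and 2.33 with them, and with a mitochondrial cap of 10% it was 2.42 and 1.48. Ngp, a neutrophil granule protein gene, was lower in PD at 7.34 against 81.5 CPM, but its log2 fold was -0.06 without members that had a Ptprc UMI, against -2.40. Defb1, a beta-defensin of epithelium, had 334 CPM in PD and 34.4 CPM in control (9.70-fold, 9.16 to 10.3). The epithelial alarm and antimicrobial list had 20 higher and 1 lower of 36 measured members (median log2 fold 1.09).

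Genes of plasmin activation and of the migrating wound edge were higher. Plau, which codes for urokinase, had 271 CPM in PD and 24.03 CPM in control, 11.3-fold (10.5 to 12.1) higher. Its receptor gene Plaur had 138 CPM in PD and 10.8 CPM in control (12.8-fold, 11.6 to 14.2), and its inhibitor gene Serpinb2 had 407 CPM in PD and 60.1 CPM in control (6.77-fold, 6.47 to 7.08). Itgb6, an integrin subunit that activates TGF-beta, had 56 CPM in PD and 12.2 CPM in control. The metalloproteinase genes Mmp13 and Mmp10 were low, at 29.9 against 1.35 CPM and 13.8 against 0 CPM. The growth factor gene Areg, a ligand of the epidermal growth factor receptor, had 114 CPM in PD and 15.3 CPM in control (7.46-fold, 6.83 to 8.15). The wound keratinocyte list had 24 higher and 1 lower of 43 measured members (median log2 fold 1.10). Of the stress keratins, Krt6b was called at 7964 against 3437 CPM, while Krt6a at 12669 against 8249 CPM and Krt16 at 2659 against 1477 CPM stayed under the 2-fold limit. Thinned to 1500 UMIs per cell, Krt16 passed it at a log2 fold of 1.08. With a mitochondrial cap of 10% Krt6b no longer passed it, at 0.42 against 1.21.

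Junctional epithelium genes were mostly higher. Odam (chr5:87885029-87894174), a protein of the tooth-facing junctional epithelium, had 294 CPM (287 to 301) in PD and 40.8 CPM (38.8 to 42.8) in control, 7.20-fold (6.83 to 7.61) higher, and in the cKO pair it had 463 against 84.9 CPM. BC037156 reached 5136 CPM (5107 to 5164) in PD and 671 CPM (663 to 679) in control, 7.66-fold (7.56 to 7.76) higher. The list had 9 higher and 1 lower of 15 measured members (median log2 fold 1.57), and Tmprss11g, Il1rn and Itgb6, given above, are among its members. Genes of cell junctions were mixed in the same gate. Gjb2, the gap junction protein connexin 26, had 1427 CPM in PD and 197 CPM in control (7.24-fold, 7.06 to 7.42). The claudin genes Cldn1 and Cldn4 had 100.3 against 12.8 CPM and 86.1 against 18.6 CPM, and the desmosomal cadherin Dsg1a was lower at 152 against 482 CPM. With a mitochondrial cap of 10% the log2 fold was 2.13 for BC037156 and 2.06 for Gjb2, against 2.92 and 2.79. The tight junction, desmosome and gap junction list had 9 higher and 2 lower of 38 measured members (median log2 fold 0.20).

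Keratins of the keratinising and lining oral surface were among the lower genes. Krt24 had 118 CPM (114 to 122) in PD and 2115 CPM (2101 to 2129.8) in control, 17.9-fold (17.3 to 18.6) lower, and Krt76, a keratin of the palate and gingiva surface, had 218 CPM (212 to 224) in PD and 2477 CPM (2461 to 2492) in control, 11.4-fold (11.1 to 11.7) lower. Krt2 had 225 against 1711 CPM, Krt13 295 against 2165 CPM, Krt4 467 against 1614 CPM and the basal keratin Krt15 227 against 1438 CPM. Krt10, the suprabasal keratin of cornifying epithelium, was close in both at 12105 against 13125 CPM. The keratin list had 1 higher and 10 lower of 23 measured members (median log2 fold -0.77). Cornified envelope genes split: Sprr1b had 1823 CPM in PD and 392 CPM in control and the kallikrein Klk10 932 CPM in PD and 202 CPM in control, while hornerin (Hrnr) had 1.82 against 48.2 CPM, Sbsn 34.3 against 125 CPM and Klk8 32.8 against 117 CPM. That list had 7 higher and 7 lower of 41 measured members (median log2 fold 0.18). With a mitochondrial cap of 10% the log2 fold was -4.75 for Krt24, -4.19 for Krt76 and 1.36 for Sprr1b, against -4.05, -3.45 and 2.19. Dst, which codes for the hemidesmosome linker dystonin, had 313 CPM in PD and 1355 CPM in control (4.33-fold lower, 4.23 to 4.44).

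The lower gene with the largest log2 fold in the gate, Cyp2f2, a cytochrome of airway and nasal epithelium, had 17.9 CPM (16.3 to 19.7) in PD and 455 CPM (448 to 462) in control, 25.4-fold (23.1 to 28.02) lower. The secreted carbonic anhydrase Car6 had 0.870 against 89.5 CPM and lactoferrin, Ltf, 11.5 against 97.3 CPM. The 8 airway and nasal markers summed to 56.8 CPM in PD and 695 CPM in control in this gate, with 5 and 3 of them at 0. The part of other epithelia in these genes was not tested.

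Heat shock and stress genes were higher in PD keratinocytes. The chaperone Hspa5 of the endoplasmic reticulum had 1273 CPM in PD and 391 CPM in control, Hspa1a 1586 CPM in PD and 522 CPM in control and Hsph1 292 CPM in PD and 81.7 CPM in control. The small heat shock protein Hspb1 went the other way at 688 against 1693 CPM. The list had 11 higher and 1 lower of 18 measured members (median log2 fold 1.20). The immediate early list, which reads digestion of tissue as well as signalling, had 8 higher and 1 lower of 30 measured members (median log2 fold 0.25): Klf6 was at 1597 against 489.7 CPM and Nfkbia at 1046 against 354 CPM, while Fos at 2556 against 2960.5 CPM and Egr1 at 944 against 1220.2 CPM were not called. Hif1a, the oxygen-regulated transcription factor, had 461 CPM in PD and 133 CPM in control, and the hexokinase Hk2 203 CPM in PD and 54.1 CPM in control, whereas Gapdh was lower at 386 against 854 CPM. The interferon list had 9 higher and 0 lower of 45 measured members (median log2 fold 0.47), with B2m, the light chain of MHC class I, at 583 against 183 CPM. Icam1, an adhesion molecule for leukocytes, had 291 CPM in PD and 106 CPM in control (2.74-fold, 2.64 to 2.85).

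**Figure D2:**
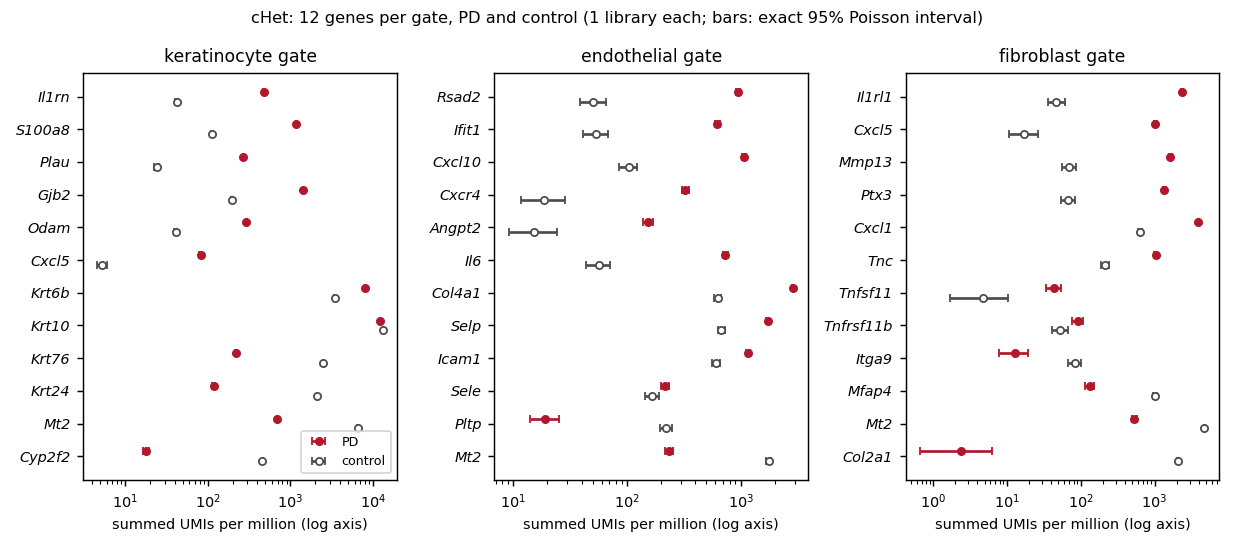
Summed UMIs in CPM (log axis) of 12 genes in each gate, PD (filled) and control (open), with exact 95% Poisson intervals. The higher genes sit to the right in PD and the lower genes to the right in control, in 1 library each.

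In PD endothelial cells interferon response genes and sprouting genes were higher. Of 6472 genes, 532 were called higher (8.22%) and 355 lower (5.49%). With TMM scaling, which adds 0.18 to each log2 ratio before 10 CPM is added, the higher share of calls was 73.56% in place of 59.98%. The gate held cells of lower depth in PD, with a median of 3075 UMIs against 5347. Rsad2, an antiviral enzyme induced by interferon, had 954 CPM (916 to 994) in PD and 50.4 CPM (38.3 to 64.96) in control, 18.9-fold (14.6 to 24.97) higher. Ifit1 had 621 CPM in PD and 53.8 CPM in control (11.6-fold, 8.98 to 15.1), Ifit2 374 CPM in PD and 17.9 CPM in control (20.9-fold, 13.6 to 33.9), and the checkpoint ligand Cd274 337 CPM in PD and 23.9 CPM in control (14.1-fold, 9.68 to 21.4). The chemokines for activated T cells, Cxcl10 and Cxcl9, had 1067 CPM (1027 to 1109) in PD and 103 CPM (85.7 to 123) in control and 208 against 15.4 CPM. The interferon list had 26 higher and 0 lower of 44 measured members (median log2 fold 1.41). In the same list the keratinocyte gate had a median log2 fold of 0.47 and the fibroblast gate 0.60, and in the cKO endothelial gate 3 of 41 were higher and 0 lower (median 0.11).

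The promoters of 3 of these genes are printed because the genes moved together in the endothelial gate. The same genes were also called higher in the other gates and in Ptprc cells of no gate. In keratinocytes, fibroblasts and Ptprc cells the log2 folds were 1.59, 3.03 and 2.89 for Rsad2. They were 2.29, 2.67 and 4.0 for Ifit1 and 1.85, 3.01 and 2.48 for Cxcl10. Each run covers 250 bases before and 50 after the start, from RefSeq (GRCm38.p6), on the strand of the gene; capitals mark GAAA, 2 bases of any kind and GAAA again, the core of an interferon-stimulated response element, searched on both strands.
Rsad2, chr12:26456403-26456702, minus strand: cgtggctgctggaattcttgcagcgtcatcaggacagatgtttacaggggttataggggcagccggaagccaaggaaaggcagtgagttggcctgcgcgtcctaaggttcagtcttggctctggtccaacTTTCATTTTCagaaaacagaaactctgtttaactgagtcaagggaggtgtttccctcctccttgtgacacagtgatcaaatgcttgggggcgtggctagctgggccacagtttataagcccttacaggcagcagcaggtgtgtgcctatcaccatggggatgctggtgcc
Ifit1, chr19:34640639-34640938, plus strand: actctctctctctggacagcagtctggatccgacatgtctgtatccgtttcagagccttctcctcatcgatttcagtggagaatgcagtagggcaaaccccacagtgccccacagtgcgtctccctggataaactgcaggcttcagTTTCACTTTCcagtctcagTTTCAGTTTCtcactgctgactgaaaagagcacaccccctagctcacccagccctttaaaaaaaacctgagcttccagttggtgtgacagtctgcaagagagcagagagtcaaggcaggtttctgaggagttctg
Cxcl10, chr5:92348840-92349139, minus strand: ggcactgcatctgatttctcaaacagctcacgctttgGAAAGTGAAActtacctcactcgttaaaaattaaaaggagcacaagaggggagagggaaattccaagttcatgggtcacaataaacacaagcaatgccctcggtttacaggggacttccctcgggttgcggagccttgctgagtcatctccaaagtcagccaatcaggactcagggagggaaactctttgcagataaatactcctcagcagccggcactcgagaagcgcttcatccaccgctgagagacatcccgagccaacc
The core was found 1 time in Rsad2, 2 times in Ifit1 and 1 time in Cxcl10, and in 3.44% of 32851 promoters of that length. Neither of the 2 RefSeq promoters of Ifit2 held these letters, nor did that of Cxcl9.

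Genes of tip cells and of new basement membrane were higher. Cxcr4, the chemokine receptor of sprouting tip cells, had 327 CPM (304 to 350.2) in PD and 18.8 CPM (11.8 to 28.4) in control, 17.4-fold (11.4 to 27.9) higher. Esm1 had 134 CPM in PD and 11.1 CPM in control (12.1-fold, 6.95 to 22.9), and Angpt2, the vessel-destabilising ligand of Tie2, had 153 CPM in PD and 15.4 CPM in control (9.96-fold, 6.21 to 16.99). The basement membrane collagens Col4a1 and Col15a1 had 2878 against 631 CPM and 1487 against 285 CPM, and fibronectin, Fn1, had 658 against 133 CPM. Of the integrin subunits, Itga5 at 108 against 32.4 CPM and Itgb3 at 83.6 against 14.5 CPM were called higher. The integrin list had 3 higher and 0 lower of 18 measured members, 11 of them with 50 UMIs (median log2 fold -0.28). With cells thinned to 1500 UMIs that median was 0.12. The sprouting list had 16 higher and 0 lower of 37 measured members (median log2 fold 0.73). With cells thinned to 1500 UMIs the log2 fold was 1.67 for Angpt2, 1.45 for Col15a1 and 1.51 for Col4a1, against 2.68, 2.34 and 2.17, and the median of the list was 0.35. By means of per-cell CPM it was 1.91 for Esm1 and 1.10 for Itgb3, against 2.77 and 1.93. Gja1, connexin 43, had 1181 CPM in PD and 242 CPM in control (4.89-fold, 4.33 to 5.54). The growth factor genes Bmp2 and Inhbb had 197 against 35.9 CPM and 153 against 17.9 CPM.

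Leukocyte adhesion genes were less uniform. Selp, P-selectin, had 1729.6 CPM (1678 to 1782) in PD and 678 CPM (631 to 726) in control, 2.55-fold (2.37 to 2.76) higher, and Ackr1, the chemokine receptor of venules, had 149 CPM in PD and 35 CPM in control (4.25-fold, 3.08 to 6.03). Icam1 had 1166 CPM (1123 to 1209) in PD and 609 CPM (566 to 656) in control, Vcam1 162 CPM in PD and 91.3 CPM in control and Sele 216 CPM in PD and 166 CPM in control, and none of these 3 was called. The log2 fold of Icam1 was 1.29 with cells thinned to 1500 UMIs and 1.05 by means of per-cell CPM, both over the limit, against 0.92. The log2 fold of Selp was 0.97 with a mitochondrial cap of 10%, and that of Ackr1 0.76 with cells thinned to 1500 UMIs, against 1.34 and 1.82. Sele, E-selectin, was called in the cKO pair, at 458 against 168 CPM. Il6 had 736 CPM in PD and 56.3 CPM in control (13.1-fold, 10.2 to 16.96), Csf3, the growth factor of neutrophils, 42.8 CPM in PD and 3.41 CPM in control, and Ccl2 282 CPM in PD and 43.5 CPM in control. Plau, urokinase, had 248 CPM in PD and 23.1 CPM in control (10.7-fold, 7.31 to 16.4). The activation list had 16 higher and 1 lower of 38 measured members (median log2 fold 0.94), and the cytokine list 17 higher and 1 lower of 25 measured members (median log2 fold 1.31). Neutrophil markers in the gate summed to 467 CPM in PD and 1686 CPM in control and mononuclear phagocyte markers to 397 and 386 CPM, and their part in these genes was not tested. Without cells with a Ptprc UMI, the log2 fold of Il6 was 3.47 against 3.49.

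The lower endothelial genes came from several functions. Pltp, the phospholipid transfer protein, had 19.2 CPM (14.1 to 25.5) in PD and 220.2 CPM (194 to 249) in control, 11.5-fold (8.39 to 16.03) lower. Itm2a had 13.9 CPM in PD and 171 CPM in control (12.3-fold, 8.53 to 18.3) and Lrg1 23.7 CPM in PD and 186 CPM in control (7.87-fold, 5.86 to 10.7). Cxcl12, the ligand of Cxcr4, was lower at 297 against 764 CPM while its receptor was higher. The tissue inhibitors of metalloproteinases Timp3 and Timp4 had 1159.8 against 3864 CPM and 62.8 against 188 CPM. The arterial connexin Gja4 had 15.9 against 55.5 CPM and Gpihbp1, which anchors lipoprotein lipase in capillaries, 62.01 against 158 CPM; with means of per-cell CPM their log2 folds were -0.68 and -0.87, against -1.34 and -1.22. The subtype list had 11 higher and 4 lower of 40 measured members (median log2 fold 0.10). Epithelial genes also met the naming rule here: Sprr1a had 304 against 23.9 CPM and Krt15 33.9 against 644 CPM, and with cells of a single gate the log2 fold of Sprr1a was 0.96 against 3.21 and that of Krt15 -1.88 against -3.90.

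PD fibroblasts had higher levels of neutrophil and monocyte chemokines, collagenases and matrix genes of activated fibroblasts. Of 5508 genes, 479 were called higher (8.7%) and 663 lower (12%). With TMM scaling, which adds 0.14 to each log2 ratio before 10 CPM is added, the higher share of calls was 53.95% in place of 41.94%. The fibroblast markers themselves summed to 89496 CPM in PD and 41320 CPM in control, with Col1a1 at 42059 and 10600 CPM, and CPM are shares of the same total. Il1rl1 (chr1:40429570-40465415), the interleukin-33 receptor, had 2371 CPM (2297 to 2447) in PD and 46.9 CPM (35.8 to 60.4) in control, 50.5-fold (39.1 to 66.3) higher, from 3900 and 60 UMIs. Its UMIs lay in 36% of PD and 4.68% of control gate cells, and the cKO pair had 143 against 38.2 CPM.

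The neutrophil and monocyte chemokines of PD reached higher CPM in this gate than in keratinocytes. Cxcl5 had 1024 CPM (976 to 1074) in PD and 17.2 CPM (10.8 to 26.1) in control, 59.5-fold (39.2 to 95.2) higher, and Cxcl1 3921 CPM (3826 to 4018) in PD and 635 CPM (592 to 680.5) in control, 6.17-fold (5.74 to 6.65) higher. Cxcl2 had 593 CPM in PD and 10.9 CPM in control, and Cxcl3 had 196 CPM in PD and 0 UMIs in control, at least 83.4-fold higher. The monocyte attractants Ccl2 and Ccl7 had 2521 CPM (2445 to 2599) in PD and 236 CPM (209.6 to 264) in control and 866 against 86.1 CPM. Il6 had 787 CPM in PD and 58.7 CPM in control (13.4-fold, 10.6 to 17.2), and Ptx3, a soluble pattern recognition protein, 1362 CPM in PD and 67.3 CPM in control (20.2-fold, 16.3 to 25.4). All were higher in the PD library. The cytokine list had 15 higher and 0 lower of 23 measured members (median log2 fold 1.66), and the inflammatory fibroblast list 32 higher and 0 lower of 45 measured members (median log2 fold 1.66). In the cKO pair Cxcl5 was not called, at 169.7 against 198 CPM, and Cxcl2 was, at 111 against 2.07 CPM.

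Several proteases of matrix breakdown were higher, and their inhibitors were split. Mmp13 (chr9:7272514-7283331), a collagenase, had 1637 CPM (1576 to 1700.3) in PD and 70.4 CPM (56.6 to 86.5) in control, 23.2-fold (18.8 to 29.02) higher, and Mmp3, stromelysin, 816 CPM (773 to 861) in PD and 138 CPM (118 to 159.6) in control, 5.92-fold (5.06 to 6.97) higher. Mmp10 had 96.7 CPM in PD and 0 UMIs in control (at least 41.2-fold), and Adamts4, an aggrecanase, 185 CPM in PD and 10.2 CPM in control. The inhibitor Timp1 was higher at 310.1 against 39.1 CPM, while Timp2 and Timp3 were lower at 1555 against 3869.7 CPM and 726 against 2507 CPM. Reck, a membrane inhibitor of metalloproteinases, was lower at 25.5 against 388 CPM (15.2-fold, 11.1 to 21.4). The list had 8 higher and 3 lower of 19 measured members (median log2 fold 0.87). Plau and Plaur had 571 against 61.03 CPM and 210.4 against 25.8 CPM.

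Genes of the list of bone-cell regulators and bone matrix were called in both directions. Tnfsf11, the osteoclast differentiation factor RANKL, had 43.2 CPM (33.7 to 54.5) in PD and 4.69 CPM (1.72 to 10.2) in control from 71 and 6 UMIs, and its decoy receptor Tnfrsf11b 90.6 CPM (76.6 to 106) in PD and 53.2 CPM (41.3 to 67.5) in control, which was not called. With every cell thinned to 1500 UMIs the log2 fold was 0.63 for Tnfsf11, no longer 2-fold, and 1.05 for Tnfrsf11b, now past it, against 1.85 and 0.67. Without gate members that had a Col2a1 or Acan UMI, Tnfrsf11b was at 1.71. Ptgs2, the inducible prostaglandin synthase, had 626 CPM in PD and 189 CPM in control and Ptges 129.5 CPM in PD and 29.7 CPM in control, and Ptgis, which makes prostacyclin, was lower at 64.4 against 302 CPM. The list of bone-cell regulators had 3 higher and 4 lower of 30 measured members (median log2 fold -0.04). Only 19 of its members held the 50 UMIs that a call needs. Of all genes with 50 UMIs in this gate, 8.7% were called higher and 12% lower.

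The matrix program split between activated and resident genes. Higher were Col6a3 at 2823 against 555 CPM, Col5a3 at 871 against 68.8 CPM, tenascin-C (Tnc) at 1039 against 212 CPM, and the myofibroblast-type genes Lrrc15 at 307 against 50.9 CPM and Cthrc1 at 390.3 against 82.9 CPM. Inhba, the activin A subunit, had 342 CPM in PD and 35.2 CPM in control (9.71-fold, 7.16 to 13.5), and Grem1, a BMP antagonist, 339 CPM in PD and 31.3 CPM in control (10.8-fold, 7.84 to 15.3). Lower were Mfap4 at 132 against 1013 CPM, Tnxb at 26.8 against 314 CPM, Inmt at 18.9 against 332 CPM, Gdf10 at 16.4 against 236 CPM and Cd34 at 249.9 against 951 CPM, genes found in resident connective tissue fibroblasts. With thinned cells the log2 fold was 1.51 for Tnc, 1.49 for Lrrc15 and 2.07 for Grem1, against 2.24, 2.38 and 3.08. The collagen and matrix list had 18 higher and 14 lower of 56 measured members (median log2 fold 0.41), and the fibroblast subtype list 7 higher and 21 lower of 46 measured members (median log2 fold -0.78). Without gate members that had a Col2a1 or Acan UMI, these medians were 0.714 and -1.001. Pericyte and smooth muscle markers in this gate summed to 3143 CPM in PD and 1251 CPM in control. Their part in the gate's differences was not tested.

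Cell cycle genes were higher in PD in the fibroblast gate. Mki67 had 83.3 CPM (69.9 to 98.5) in PD and 2.35 CPM (0.484 to 6.86) in control and Ccna2 57.8 against 3.13 CPM. The list had 16 higher and 0 lower of 32 measured members (median log2 fold 1.33), against 1 of 42 higher in the keratinocyte gate and 1 of 36 in the endothelial gate, with 0 lower in both. Members with the 50 UMIs that a call needs were 23 in the fibroblast, 42 in the keratinocyte and 22 in the endothelial gate. The difference between gates was not tested. In cKO the fibroblast list had 2 higher and 0 lower of 20 measured members (median log2 fold 1.31).

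Cartilage genes made up most of the 12 largest lower log2 folds of the fibroblast gate. Col2a1 (chr15:97975602-98004695), the collagen of hyaline cartilage, had 2.43 CPM (0.663 to 6.23) in PD and 2092 CPM (2014 to 2173) in control, and Acan, the cartilage proteoglycan, 1.22 CPM (0.147 to 4.39) in PD and 279 CPM (251 to 309.8) in control. Cytl1 had 0 UMIs in PD and 1490.4 CPM in control (at least 817-fold lower), and Chad, Comp, Cnmd and Col9a2 likewise had 0 UMIs in PD, against 801, 241, 317 and 249.6 CPM. In control these lay in few cells: a UMI of Col2a1 was seen in 14.0% and of Acan in 15.8% of the gate. The 5 chondrocyte markers summed to 219 CPM in PD and 3123 CPM in control. Without gate members that had a Col2a1 or Acan UMI, the log2 fold was -0.59 for Comp and -3.35 for Cytl1, against -4.65 and -7.23, and -0.85 for Cnmd and -0.59 for Col9a2, against -5.03 and -4.70. Angptl7, an angiopoietin-like gene, had -5.07 against -5.54. In the cKO pair Col2a1 went the other way, with 1242 against 0 CPM, as did Acan with 224 against 17.6 CPM and Comp with 70.9 against 18.6 CPM. Fmod, fibromodulin, had 27.97 CPM in PD and 872 CPM in control here and 1005 against 463 CPM in cKO.

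Itga9 itself was lower in the fibroblast gate of PD. It had 12.8 CPM (7.90 to 19.5) in PD and 82.9 CPM (67.9 to 100.3) in control from 21 and 106 UMIs, 6.50-fold (4.04 to 10.9) lower, and the cKO pair had 69.6 against 65.1 CPM. Of the genes for ligands of its integrin, the fibroblast gate had higher Tnc, given above, and Vcam1 at 193 against 17.2 CPM, and lower Svep1 at 83.3 against 197 CPM. The list of these ligands had 4 higher and 3 lower of 18 measured members (median log2 fold 0.11). In the endothelial gate Itga9 was 44.1 against 79.4 CPM, not called, and its partner subunit Itgb1 was 859.5 against 680.3 CPM.

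**Figure D3:**
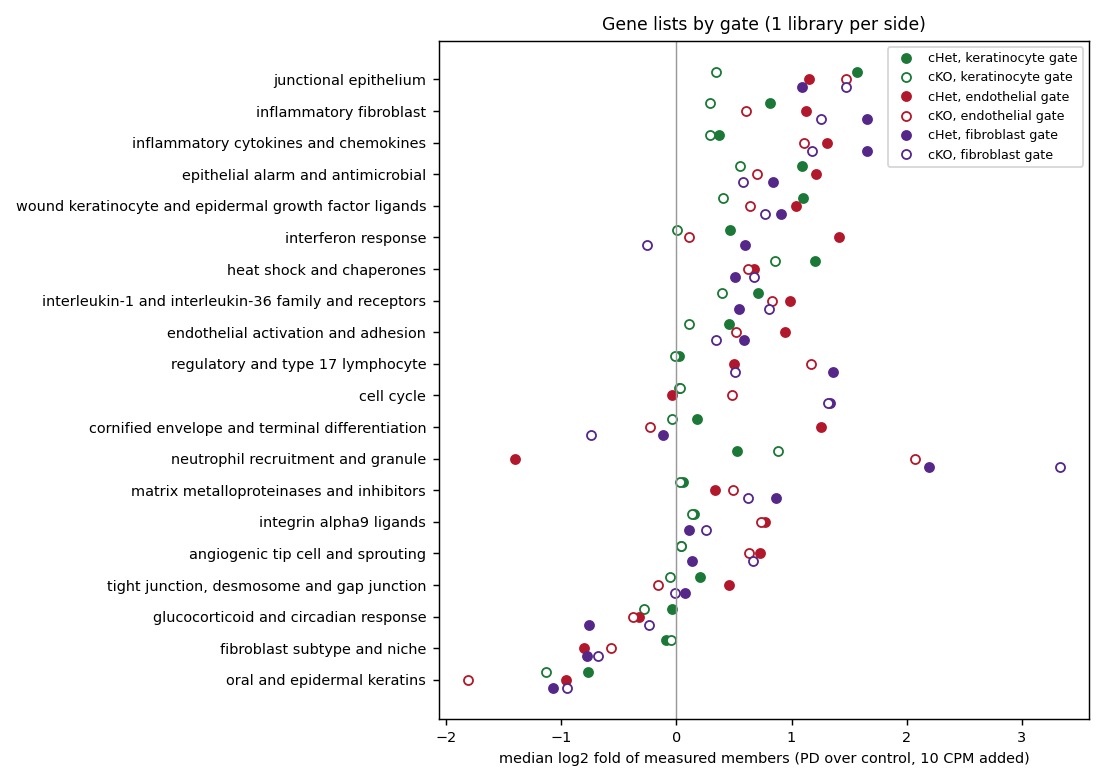
Median log2 fold of measured members (PD over control, 10 CPM added) of the 20 gene lists whose cHet median lay farthest from 0 in any of the 3 gates, cHet filled and cKO open. Inflammatory fibroblast genes reach 1.66 in cHet fibroblasts and interferon response genes 1.41 in cHet endothelial cells, against 0.11 in cKO endothelial cells.

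Metallothionein genes, which code for small zinc- and copper-binding proteins induced by metals and glucocorticoids, were lower in PD in every gate. Mt2 had 691 CPM (681 to 702) in PD and 6518 CPM (6493 to 6543) in control in keratinocytes, 9.43-fold (9.28 to 9.58) lower. It had 235 CPM in PD and 1759 CPM in control in endothelial cells and 534 CPM in PD and 4722 CPM in control in fibroblasts, which were 7.49-fold (6.82 to 8.23) and 8.84-fold (8.23 to 9.496) lower. In endothelial cells that passed no other gate the log2 fold of Mt2 was -1.34 against -2.85, and 62 of 173 control cells of that gate also passed the keratinocyte gate. Mt1 had 320.2 against 1808 CPM in keratinocytes, 91.4 against 512 CPM in endothelial cells and 269 against 1306 CPM in fibroblasts, and each gate called it. In keratinocytes Mt3 had 0.995 against 40.3 CPM and Mt4, the form of stratified epithelium, 586 against 1709 CPM. The zinc importer Slc39a14 was higher in fibroblasts at 302 against 50.9 CPM. In cKO, Mt2 was 603 against 4544 CPM in keratinocytes, 117 against 1631 CPM in endothelial cells and 216 against 3862 CPM in fibroblasts.

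The promoters of Mt1 and Mt2, which lie side by side on chromosome 8, are printed because both genes were lower in each gate and in both genotypes. Capitals mark TGCNCNC, with N any base, a loose form of the core of the metal response element bound by MTF-1. It was searched on both strands in the same window.
Mt1, chr8:94178839-94179138, plus strand: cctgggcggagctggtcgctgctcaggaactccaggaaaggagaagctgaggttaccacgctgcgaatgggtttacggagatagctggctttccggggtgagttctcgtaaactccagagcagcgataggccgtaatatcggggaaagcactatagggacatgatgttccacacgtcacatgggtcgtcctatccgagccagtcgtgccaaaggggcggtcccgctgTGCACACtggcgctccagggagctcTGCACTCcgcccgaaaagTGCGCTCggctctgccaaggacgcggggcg
Mt2, chr8:94172368-94172667, plus strand: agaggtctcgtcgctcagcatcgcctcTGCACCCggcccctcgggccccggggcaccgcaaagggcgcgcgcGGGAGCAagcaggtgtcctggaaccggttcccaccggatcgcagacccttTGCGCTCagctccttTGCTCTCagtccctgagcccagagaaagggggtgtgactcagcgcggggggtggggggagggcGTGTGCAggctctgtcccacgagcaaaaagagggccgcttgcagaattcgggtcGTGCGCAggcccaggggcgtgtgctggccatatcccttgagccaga
This loose form was found 3 times in Mt1 and 6 times in Mt2. It is short, and 51.0% of 32851 promoters held it at least once and 7.1% at least 3 times.

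Some glucocorticoid and clock genes were lower as well. In keratinocytes the list had 1 higher and 10 lower of 29 measured members (median log2 fold -0.04), beside -0.05 for all genes, and its median turned to 0.08 with TMM scaling and 0.06 with doubled gate thresholds. In endothelial cells it had 1 higher and 9 lower of 29 measured members (median log2 fold -0.33), which was -0.03 with cells of a single gate. In fibroblasts it had 1 higher and 12 lower of 29 measured members (median log2 fold -0.76). Zbtb16, a target of the glucocorticoid receptor, had 1.33 against 35.99 CPM in keratinocytes, 11.01 against 154 CPM in endothelial cells and 12.8 against 185 CPM in fibroblasts. Hlf, a clock output factor, had 41.8 against 255 CPM, 41.6 against 201 CPM and 40.7 against 466 CPM in the same order. The clock genes Per2 and Dbp, chosen after their values were seen, were lower in the 3 gates, with log2 folds of -1.68, -1.29 and -1.35 for Per2 and -1.75, -1.59 and -2.17 for Dbp. Arntl, which peaks opposite to these, was higher in endothelial cells at 35.9 against 12.8 CPM and in fibroblasts at 49.2 against 7.04 CPM, with log2 folds of 0.85 by means of per-cell CPM and 0.77 with thinned cells, against 1.01 and 1.80. Per1, Clock and Nr1d1 were not called in any gate. The hour of harvest is not given, so hour and treatment cannot be told apart.

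Some differences ran through all populations alike. Of 3777 genes tested in the 3 gates and the Ptprc cells of no gate, 68 (1.8%) were called higher and 53 (1.403%) lower in all 4, and 9 and 26 of these were called the same way in all 4 populations of cKO. The higher 9 held Hif1a and Cebpb, an inflammatory transcription factor named after its values were seen, with log2 folds of 2.74, 2.38, 2.95 and 2.37 for Cebpb. The 9 also held BC037156, at 2.92, 4.99, 1.47 and 3.45 in keratinocytes, endothelial cells, fibroblasts and Ptprc cells. Gjb2 and Sprr1b, given above in keratinocytes, were among the 68, at 3.38 and 3.64 in the endothelial gate. The part of epithelial RNA in the other populations was not tested. Of the lower 26, 14 were ribosomal protein genes. The ribosomal genes did not move as a block: of 82 with at least 100 CPM in control, 24 were lower and 0 higher in keratinocytes, and their log2 folds ran from -3.03 to 0.78. Short transcripts of the respiratory chain were among those that moved with them in keratinocytes, Uqcr11 at 23.2 against 173 CPM and Ndufa7 at 27.6 against 162 CPM, and so was Fau, which encodes a ribosomal protein, at 88.9 against 892 CPM. The ribosomal protein genes summed to 13.7% of keratinocyte UMIs in PD and 17.8% in control. With 1 library per group, library and treatment cannot be told apart in such genes.

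The gates shared a part of their calls. Of 4818 genes tested in all 3, 120 (2.491%) were higher and 111 (2.304%) were lower in all 3, and 412 and 311 were called in 1 gate alone. Hmox1, heme oxygenase, was higher in each gate at 103 against 19.3 CPM, 282 against 40.1 CPM and 1016 against 129.9 CPM, in the order keratinocyte, endothelial and fibroblast. Gstm1, a glutathione transferase, was lower in each at 123 against 499.5 CPM, 51.8 against 349 CPM and 63.8 against 622 CPM.

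**Figure D4:**
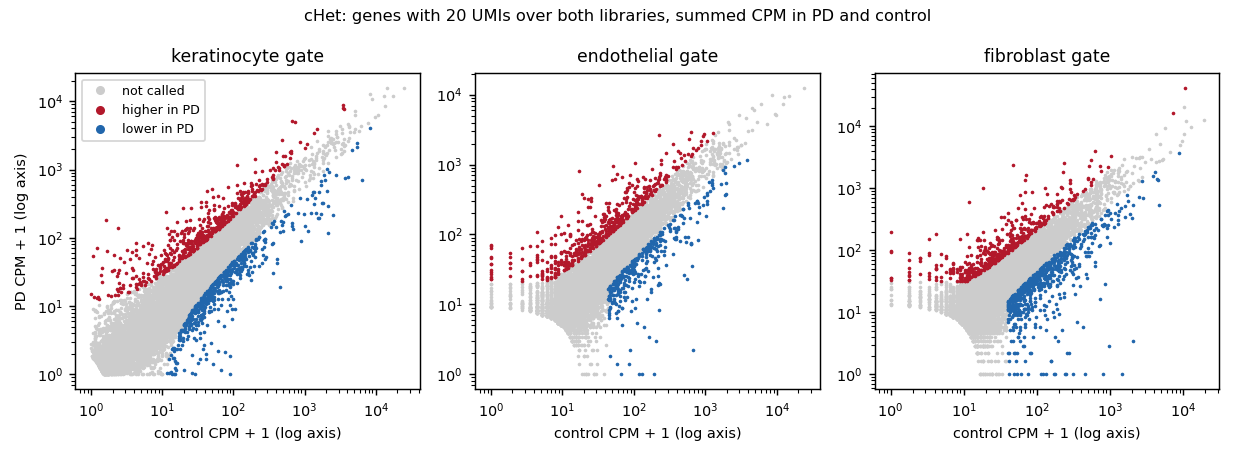
Summed CPM in control (horizontal) and PD (vertical) of each gene with 20 UMIs over both libraries in the 3 gates, log axes with 1 CPM added, called genes in colour. Higher genes are 529, 532 and 479 and lower genes 528, 355 and 663 in the keratinocyte, endothelial and fibroblast gates.

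Over all kept cells, where a change in the mix of cells and a change in RNA per cell cannot be told apart, 641 of 13920 genes were called higher (4.6%) and 490 lower (3.52%), against 430 (3.08%) and 333 (2.39%) in cKO. Cxcl2 had 631 CPM (623 to 639.8) in PD and 44.96 CPM (43.2 to 46.8) in control, 14.04-fold (13.5 to 14.7) higher, with 8852 CPM in the Ptprc cells of PD. The prostaglandin synthase Ptgs2 had 199 CPM in PD and 28.5 CPM in control (7.005-fold, 6.63 to 7.41), and Il1b 123 CPM in PD and 8.61 CPM in control (14.3-fold, 12.96 to 15.7). The cytokine list had 19 higher and 0 lower of 38 measured members (median log2 fold 1.18) and the endothelial activation list 23 higher and 0 lower of 38 measured members (median log2 fold 1.10), and the PD library held larger shares of endothelial, fibroblast and Ptprc cells. The salivary and secretory genes Car6 and Ltf were lower at 63.98 against 910.2 CPM and 114 against 854 CPM, and in cKO they were higher at 4320.2 against 1605 CPM and 4859 against 1404 CPM.

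The cKO pair, which shares no library with the cHet pair, gave a second set of values for the same treatment in another genotype. Of the 529 genes higher in cHet keratinocytes, 164 (31.0%) were also higher in cKO, which is 81.6% of the 201 called there (1.56% of tested genes). Of the 528 lower, 223 (42.2%) were lower in cKO, 58.7% of 380 (2.94%). In endothelial cells 186 of 532 higher genes (35.0%) were shared, 57.8% of 322 (5.36%), and 195 of 355 lower genes (54.9%), 44.7% of 436 (7.25%). In fibroblasts 122 of 479 higher genes (25.5%) were shared, 36.7% of 332 (8.51%), and 290 of 663 lower genes (43.7%), 45.5% of 637 (16.3%). Of the higher and the lower genes, 1 and 3 were called the opposite way in cKO in keratinocytes, 5 and 16 in endothelial cells and 6 and 31 in fibroblasts. In the endothelial gate of cKO the interferon gene Rsad2 was 188 against 51.1 CPM, Ifit1 97.2 against 49.5 CPM and Cxcl10 308 against 212 CPM, and the last 2 of these were not called. The difference between the genotypes was not tested.

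**Figure D5:**
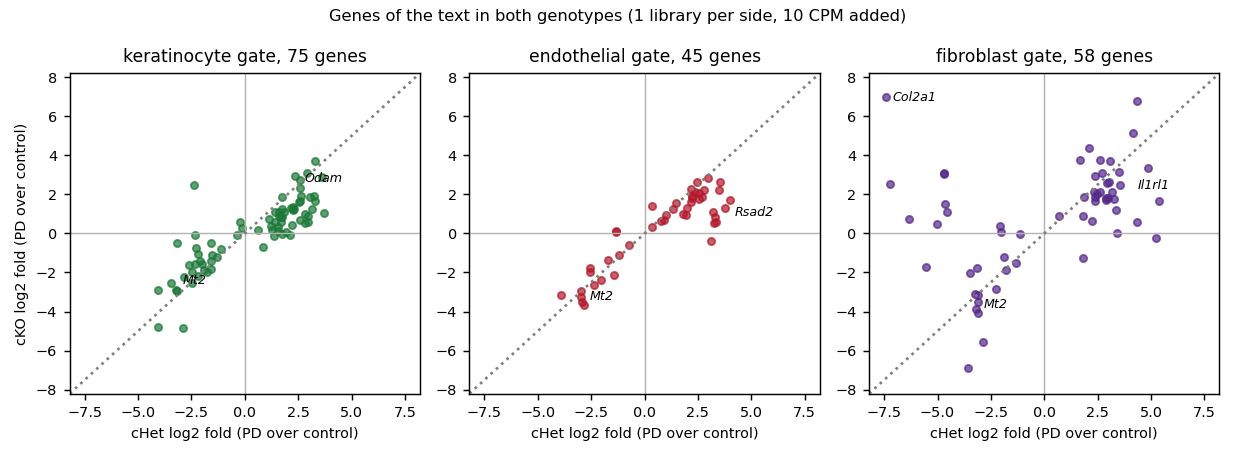
Log2 fold (PD over control, 10 CPM added) of the named genes in cHet (horizontal) and cKO (vertical) in the 3 gates, with the diagonal of equal folds. Folds have the same sign in 68 of 75 keratinocyte, 42 of 45 endothelial and 45 of 58 fibroblast genes, and cartilage genes such as Col2a1 lie low in cHet and high in cKO in the fibroblast gate.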

How the data were processed

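Single cells of gingiva were measured in 4 libraries, 1 per group. The labels name both BD Rhapsody (capture protocol) and 10x Genomics (description), and barcodes have 27 bases. The deposited counts are UMI counts per gene and barcode, not normalized; per the submitters' processing notes, reads were handled with fastp and STARsolo 2.7.10a on mm10. Of 31253 gene ids 31107 were matched to GENCODE M21. The filters and gates are those given in the report, and doublets were not called. UMIs were summed per library and population with Python 3.11.15, numpy 2.4.6, scipy 1.17.1 and pandas 2.3.3, and TMM factors came from edgeR 4.0.16 in R 4.3.3. Levels have exact Poisson intervals, shares and gene ratios exact Clopper-Pearson intervals, and ratios of shares a Katz log interval, all at 95% and for counting error only. A level of 0 was set to 3 counts for a bound. The call rule was tested on simulated data.

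Named were, in each population, the 12 largest called log2 folds in each direction among genes in at least 10% of the cells of the higher library and with a CPM at least 0.2 of the highest among the gates and Ptprc cells, the 4 largest called members of each of 34 lists in each direction, and a short list of genes always given. Mitochondrial, ribosomal, hemoglobin, immunoglobulin, T cell receptor, sex-linked, predicted and gate genes were not named by the rule. The populations, members and lists were chosen with earlier results of these data known. Alternatives were another UMI floor, mitochondrial cap, gate threshold, pseudocount, UMI minimum and scaling, per-cell means, thinning to 1500 UMIs and cells of 1 gate. Leaving out gate members with a Ptprc UMI, or with a Col2a1 or Acan UMI, was chosen after seeing the data. Some genes that met the naming rule are not reported here.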

Additional observations from a re-analysis of the deposited data

Results flagged for a closer look

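Several genes named in the report were called in opposite directions in the 2 genotypes, and each value rests on 1 library per side, so that the difference between genotypes was not tested. In the fibroblast gate the log2 fold of Col2a1 was -7.40 in cHet and 6.97 in cKO, that of Cytl1 -7.23 and 2.51, that of Acan -4.69 and 3.09, that of Col9a2 -4.70 and 3.05, that of Comp -4.65 and 1.501, and that of Fmod -4.54 and 1.10. All of these are genes of cartilage or dense connective tissue. The chondrocyte markers summed to 219 CPM in PD and 3123 CPM in control in cHet, and to 2180 CPM in PD and 104 CPM in control in cKO. Ptges, the inducible prostaglandin E synthase, had 1.81 in cHet and -1.25 in cKO in the same gate.

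In the keratinocyte gate Ngp had a log2 fold of -2.40 in cHet and 2.49 in cKO. Over all kept cells Car6 had -3.64 and 1.42, and Ltf had -2.80 and 1.78, in the same order.

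The 3018 PD barcodes that passed the other filters and were removed by the floor of 1501 UMIs alone, which entered only the values given without that floor, held more RNA of leukocytes and vessels than the kept control cells. Neutrophil markers summed to 10938.8 CPM (10810.2 to 11068.7) in them, against 589.1 CPM (582.7 to 595.6) in kept control cells and 1708 CPM in kept PD cells. Mononuclear phagocyte markers summed to 2755.4 CPM against 147.9 CPM, endothelial markers to 1315.5 CPM against 183.2 CPM, and red blood cell markers to 1560.4 CPM against 32.7 CPM in kept control cells. The control deposit holds no barcode of that depth, so no control value at the same depth can be given.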

How the results depend on the processing

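No paired analysis was possible because there was a single library on each side, and none could be left out. The share ratio of the keratinocyte gate was 0.927 and turned to 1.072 with a mitochondrial cap of 10%; it was 0.6687 with no common UMI floor, 0.9714 with doubled gate thresholds and 0.8969 with cells thinned to 1500 UMIs. For the endothelial gate the ratio was 5.849 with cells of 1 gate and 5.616 with thinned cells, against 4.22. For the fibroblast gate it was 1.812 with no floor, 1.705 with the cap of 10% and 2.991 with thinned cells, against 2.20. With 1 CPM added in place of 10, 1451 genes were higher and 1711 lower over all kept cells, and 1079 and 1958 in keratinocytes. With cells thinned, 125 genes were lower in endothelial cells, and 250 were higher and 117 lower in fibroblasts; thinning leaves fewer UMIs to reach the minimum of 50. With a minimum of 10 UMIs, or none, 610 genes were lower in endothelial cells. TMM scaling raised each log2 ratio of CPM by 0.09 over all cells and by 0.14 to 0.18 in the gates. With 10 CPM added, the log2 folds of low genes rose by less. With this scaling 740 genes were higher and 362 lower in keratinocytes, 729 and 262 in endothelial cells, and 656 and 560 in fibroblasts. For the other changes in counts of called genes the cause was not tested. Log2 folds of genes named in the report were also compared under the alternatives other than TMM scaling and 1 CPM added. The fold itself, with 10 CPM added, moved by a factor of more than 1.5 in 28 of 525 values in keratinocytes, 26 of 315 in endothelial cells and 42 of 464 in fibroblasts. Among these settings it moved most often with the mitochondrial cap of 10% in keratinocytes and with thinned cells in the other gates. The report gives the named genes that crossed the 2-fold limit under those settings. It does not give those that crossed it under TMM scaling or with 1 CPM added. No gene named in the report and called in cHet changed its direction under any of the alternatives, apart from Col2a1 and Acan. These are 0 by construction without cells that hold them. Depth limits the stromal gates most, with 549 and 173 endothelial and 283 and 171 fibroblast cells in PD and control.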
